A study of Mus musculus with 8 samples.

Results

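The nuclear-encoded subunits of respiratory complexes II, III and IV and of the ATP synthase (complex V) were followed in livers of homozygous Pus1 mutant mice and their wild-type counterparts. The 38 genes, 4 of complex II, 9 of complex III, 10 of complex IV and 15 of the ATP synthase, were taken from a list of these subunits by matching the RefSeq transcript of each array probe to a mouse gene symbol. All 38 were found among the 17531 genes or unnamed transcripts that could be tested, of which 11852 carried a symbol. One of them is listed under an older name, Atp5f1, and is given here by its current symbol, Atp5pb. Each was well above background in all 8 livers and none was saturated in any.

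The 4 complexes work in sequence in the inner mitochondrial membrane. Complex II, succinate dehydrogenase, passes electrons from the citric acid cycle to ubiquinone, complex III passes them on to cytochrome c, and complex IV, cytochrome c oxidase, passes them to oxygen. Complexes III and IV pump protons, and the ATP synthase uses the proton gradient to make ATP, on which liver functions such as urea and glucose synthesis depend. Complex II is encoded wholly in the nucleus, whereas complexes III, IV and the ATP synthase join nuclear subunits to ones made on mitochondrial ribosomes. Pus1 encodes pseudouridine synthase 1, which modifies uridines in tRNAs of the cytosol and of mitochondria.

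Wild-type and homozygous mutant groups held 4 animals each, 2 females and 2 males, 14 to 16 weeks old, on C57BL/6J after 5 generations of backcrossing. No treatment was given, the labels describe the allele only as a homozygous mutant, and the RNA came from whole frozen liver. Each of the 4 two-colour arrays paired 1 mutant with 1 wild-type liver of the same sex, females on arrays 1 and 2 and males on arrays 3 and 4. The mutant carried Cy5 on arrays 1 and 3 and Cy3 on arrays 2 and 4, and samples are numbered by their array. In bulk liver, fewer cells of a type and less RNA per cell cannot be told apart.

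The targeted gene was read first. A level is the log2 intensity of a single sample after normalization between arrays. For Pus1 it was 8.46, 8.92, 8.45 and 8.82 in wild types 1 to 4 and 6.32, 6.81, 6.63 and 6.75 in mutants 1 to 4. The probe stood clear of background in 4 of 4 wild types but in 0 of 4 mutants, so the gene was at least 4.10-fold lower in mutants, with an adjusted p of 0.0567 (limma, Benjamini-Hochberg). All 10 of 10 hepatocyte markers were well above background in every sample. Of the spots that were not controls, 42.2% to 44.0% were well above background in a female and 36.8% to 37.9% in a male. The list of 13 mitochondrially encoded subunits had 0 probes matched by symbol and was not analysed here.

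Across the respiratory subunits the mutant and wild-type livers differed little. No subunit passed the adjusted threshold of 0.05 by genotype (0 of 38 with limma, background 0% of 17531). Without adjustment 2 of 38 were higher in mutants at p under 0.05, Cyc1 of complex III and Atp5g3 of the ATP synthase, and the share over all genes was 4.75%. Of the 38 log2 ratios (mutant over wild type, fitted over the arrays), 32 were above 0, beside 47% of all genes tested and 51.7% of those with a symbol. Their median was 0.08 and their range −0.05 to 0.51, while the median over all genes was −0.01. Complex II had 3 of 4 above 0 (median 0.04), complex III 6 of 9 (0.10), complex IV 10 of 10 (0.06) and the ATP synthase 13 of 15 (0.10). With median centring of each array in place of loess, 38 of 38 were above 0, beside 56.8% of all genes, and the median was 0.20; without array 1 the count was 22 of 38 and the median 0.02. The complex medians without array 1 were 0.0079, 0.027, −0.004 and 0.026 in the same order, and without array 3 they were 0.11, 0.19, 0.13 and 0.19.

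The ratios were small against the precision of the arrays. The median standard error was 0.11 on the log2 scale, and 21 of the 38 fitted ratios lay between −0.1 and 0.1. For 33 of 38 subunits the 95% interval of the ratio stayed within 1.5-fold in either direction, and no interval reached 1.5-fold lower in mutants. Higher on all 4 arrays were 4 subunits, Uqcr10, Cyc1, Atp5d and Atp5g3, beside 8.99% of all genes. In 0 of 38 did every mutant lie above every wild type, beside 1.34% of all genes.

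**Figure D1:**
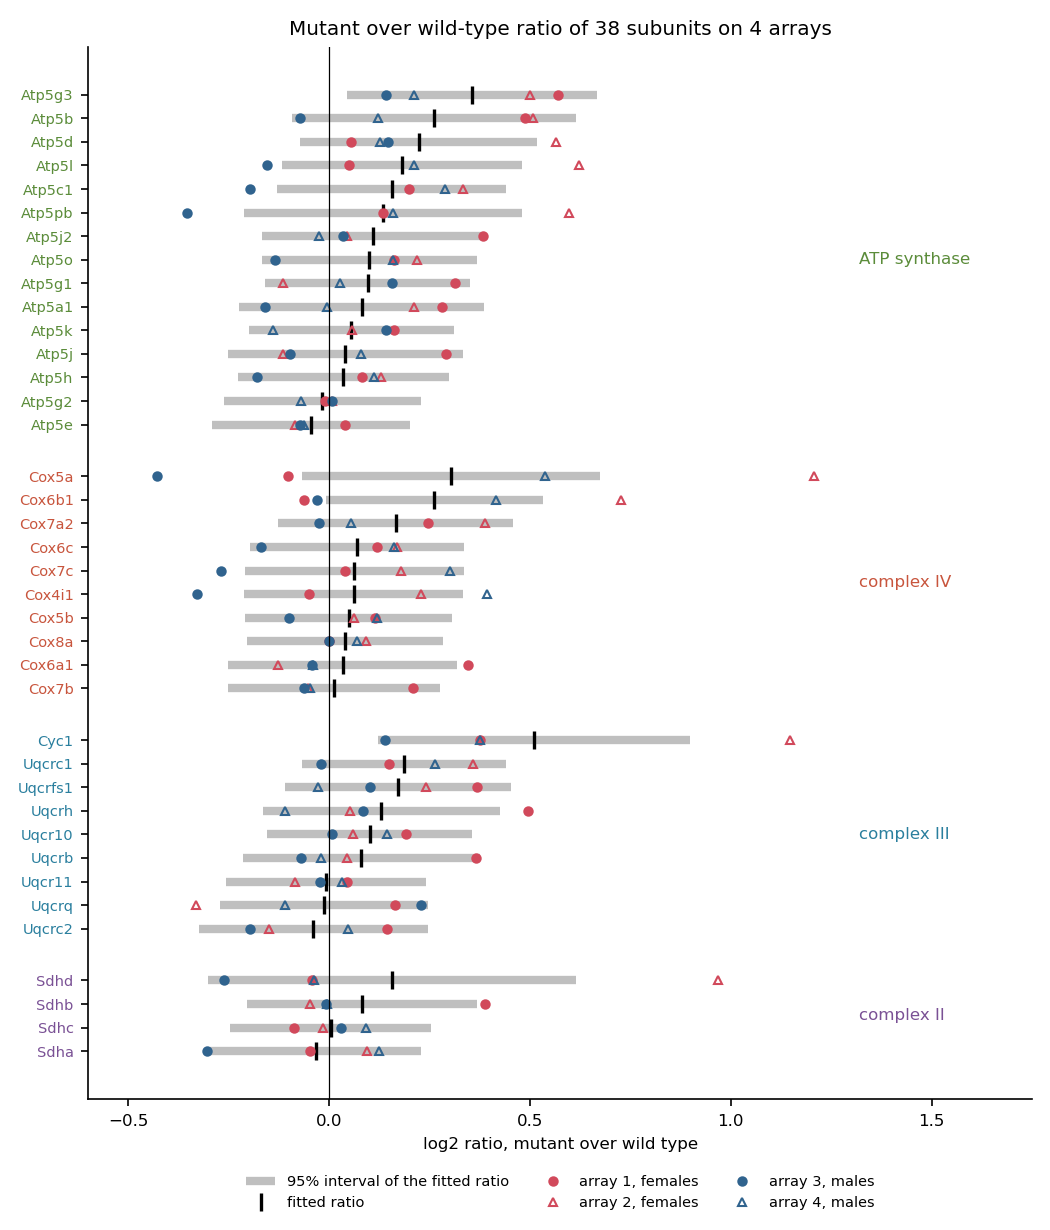
Log2 ratio of mutant over wild type for each of the 38 subunits, by complex, on the 4 arrays (red for females, blue for males, filled circles where the mutant carried Cy5, open triangles where it carried Cy3), with the fitted ratio (black tick) and its 95% interval (grey bar). Most fitted ratios lie between −0.05 and 0.2, and single high values on array 2 set Cox5a, Cyc1, Sdhd and Cox6b1 apart.

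Array by array, the medians of the 38 ratios were 0.15, 0.11, −0.05 and 0.09, with 30, 28, 12 and 25 of 38 above 0. Array 3, a male pair, was the one with most subunits lower in the mutant. On it 0 of 10 complex IV subunits were above 0, against 6, 8 and 8 on arrays 1, 2 and 4. The spread between subunits was largest on array 2, with an SD of 0.36 against 0.18, 0.16 and 0.16 on arrays 1, 3 and 4. Over all genes the spread was also largest there, 0.62 against 0.35, 0.31 and 0.27.

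Complex II couples the citric acid cycle to the membrane through the flavoprotein Sdha, the iron-sulfur subunit Sdhb and the membrane anchors Sdhc and Sdhd. Sdha and Sdhc had fitted ratios of −0.03 ± 0.10 (SE) and 0.00 ± 0.10 (SE), and neither left the range of −0.31 to 0.12 on any array. Sdhd (NM_025848), the smaller anchor, had the most uneven values of the complex. Its log2 levels were 14.78, 13.89, 14.19 and 14.10 in wild types 1 to 4 and 14.73, 14.86, 13.93 and 14.06 in mutants 1 to 4. The female livers stood at the top, except wild type 2, which was the lowest of all, so the genotypes overlapped. The fitted ratio was 0.16 ± 0.18 (SE, adjusted p = 0.756 with limma), and it was −0.10 without array 2.

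For Sdhb (NM_023374), which carries the iron-sulfur clusters, the level was 15.17, 15.49, 15.64 and 15.26 in wild types and 15.56, 15.45, 15.63 and 15.25 in mutants. Only the array 1 pair was apart, and the fitted ratio was 0.08 ± 0.11 (SE, adjusted p = 0.801), or −0.02 without array 1. A second, dimmer Sdhb probe of the same transcript gave 0.36, 0.94, 0.02 and 0.36 on the 4 arrays, where the brighter probe gave 0.39, −0.05, −0.01 and −0.01. The probes thus matched on arrays 1 and 3 and parted on arrays 2 and 4, where the mutant carried Cy3.

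NRF1 and the ETS family member GABP are the factors best known for binding promoters of respiratory genes. Motifs of both families were found upstream of Sdhd, Cox6a1 and Atp5h. The sequence upstream of Sdhd is shown as an example. It is the 250 bases before the RefSeq start (GRCm38.p6, chr9:50603850-50604099, minus strand), read toward the gene. Capitals mark 1 match each to the NRF1 motif (GCGCA, any base, then GCGC) and, on the other strand, to the ETS motif CCGGAAG.
Sdhd: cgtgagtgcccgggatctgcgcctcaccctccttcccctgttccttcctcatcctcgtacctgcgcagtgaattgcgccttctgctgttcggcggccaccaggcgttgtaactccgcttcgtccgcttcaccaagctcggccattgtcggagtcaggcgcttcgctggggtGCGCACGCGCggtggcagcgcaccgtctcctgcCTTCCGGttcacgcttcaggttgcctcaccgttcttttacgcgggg

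RefSeq promoters of the same build were found for 30 of the 38 subunits, 33 promoters in all. Searched on both strands, the NRF1 motif was in 7 of 33 (21.2%) and in 3.74% of all 32851 mouse promoters of that length. The ETS motif was in 9 (27.3%) against 6.91%, and CCAAT in 17 (51.5%) against 33.8%. The TATAAA motif was in 1 (3.03%), upstream of Atp5l, against 12.4%, and the Sp1 motif GGGCGG in 8 (24.2%) against 32.7%. The median GC content was 54.8% and 52.4% over all. Matches are letters in a window and do not show binding.

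Complex III takes electrons from ubiquinone to cytochrome c. Cyc1 (NM_025567), cytochrome c1, which hands the electron to cytochrome c, had the highest ratio of all 38 subunits. Its log2 level was 13.91, 13.30, 13.85 and 13.43 in wild types 1 to 4 and 14.29, 14.45, 13.98 and 13.80 in mutants 1 to 4. Each mutant stood above the wild type on its own array, with the largest gap on array 2, but mutant 4 was below wild types 1 and 3, so the groups overlapped. The arrays gave 0.38, 1.15, 0.14 and 0.38, and the fitted ratio was 0.51 ± 0.16 (SE), 1.42-fold, with an unadjusted p of 0.0190 and an adjusted p of 0.541 (limma). The adjusted p fell to 0.0288 without array 4 and to 0.0355 with the array as a random block, and the ratio was 0.32 without array 2. Over all genes, 1490 of 17531 passed without array 4 and 1501 of 17510 with the random block.

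Uqcrc1 (NM_025407), a core protein of complex III, read 12.56, 12.37, 12.75 and 12.33 in wild types and 12.70, 12.72, 12.73 and 12.59 in mutants. Mutants were the more even group and lay inside the range of the wild types. The fitted ratio was 0.19 ± 0.10 (SE, adjusted p = 0.554). Uqcrfs1, the Rieske iron-sulfur protein, had a ratio of 0.17 ± 0.11 (SE). The other core protein, Uqcrc2, had −0.04 ± 0.11 (SE), and the small subunits Uqcrb, Uqcrh, Uqcrq, Uqcr10 and Uqcr11 lay between −0.01 and 0.13.

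Complex IV reduces oxygen, and its nuclear subunits surround a mitochondrially made core. Cox5a (NM_007747), a subunit on the matrix side, had the widest range of levels of the 38. Its log2 level was 15.82, 14.55, 15.30 and 14.64 in wild types 1 to 4 and 15.71, 15.76, 14.87 and 15.17 in mutants 1 to 4. Wild types 2 and 4, the wild types that carried Cy5, were the lowest samples. The mutant was lower on arrays 1 and 3 (−0.10 and −0.43) and higher on arrays 2 and 4 (1.21 and 0.54). The fitted ratio was 0.30 ± 0.15 (SE, adjusted p = 0.546). The dye coefficient of the same fit, Cy5 over Cy3, was −0.57 ± 0.15 (SE), with an unadjusted p of 0.0101 and an adjusted p of 0.576.

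Cox6b1 (NM_025628), which faces the intermembrane space, shared the low values of wild types 2 and 4. Its level was 12.36, 11.63, 12.13 and 11.60 in wild types and 12.30, 12.35, 12.10 and 12.02 in mutants. These wild types were the lowest samples, and the other 6 lay within 12.02 to 12.36. The fitted ratio was 0.26 ± 0.11 (SE, adjusted p = 0.541) and the dye coefficient −0.31 ± 0.11 (SE, unadjusted p = 0.0318).

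The other 8 subunits of complex IV moved less. Cox7a2 had a ratio of 0.17 ± 0.12 (SE) and Cox7b, a small subunit encoded on the X chromosome, 0.01 ± 0.11 (SE), which was −0.06 without array 1. Cox4i1, Cox5b, Cox6a1, Cox6c, Cox7c and Cox8a lay between 0.03 and 0.07. The files also hold isoforms of complex IV subunits typical of other tissues. Probes of Cox7b2, Cox8b and Cox8c were well above background in 0 of 8 samples and that of Cox6a2 in 3, while those of Cox4i2, Cox6b2 and Cox7a1 were in 8. The ratios of these last 3 ran from −0.04 to 0.54 with a median of 0.11, and 2 of 3 were above 0. The highest was Cox7a1, the heart and muscle form of Cox7a2, at 0.54 ± 0.15 (SE), with an unadjusted p of 0.0139 and an adjusted p of 0.541 (limma). Each Cox7a1 mutant level was above each wild type, beside 1.34% of all genes.

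**Figure D2:**
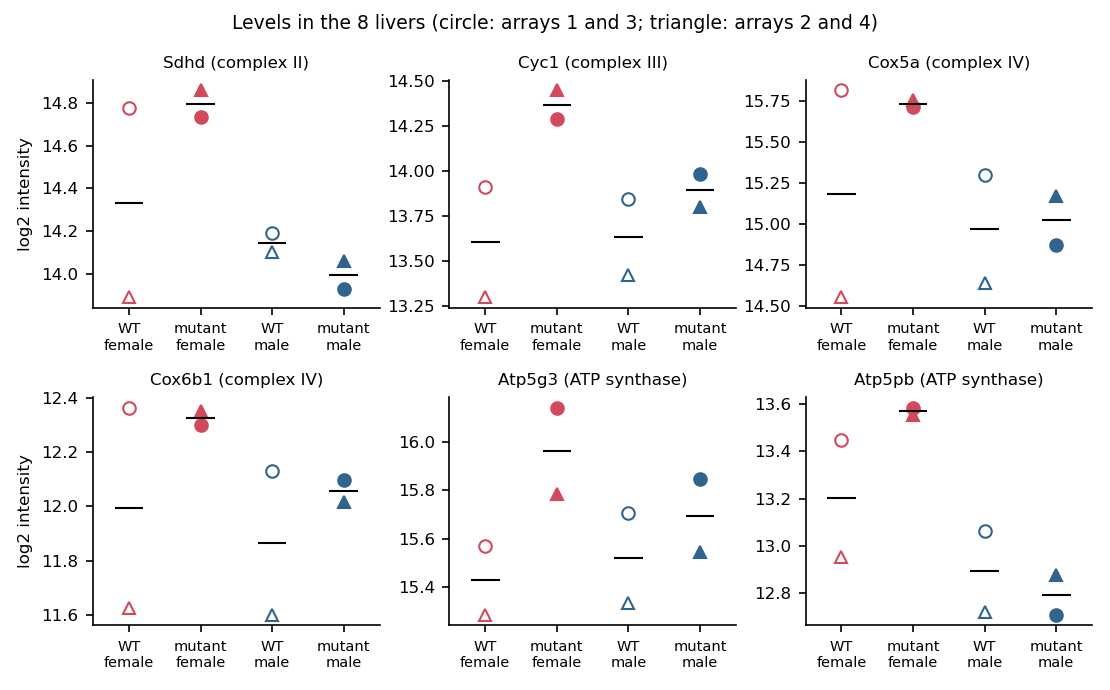
Log2 level of 6 subunits in each of the 8 livers by sex and genotype (open for wild type, filled for mutant; circles from arrays 1 and 3, triangles from arrays 2 and 4; bars are means of the 2 livers). In Sdhd, Cyc1, Cox5a and Cox6b1 the female wild type on array 2 lies far below the one on array 1, while the female mutants lie close together.

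The ATP synthase consists of a catalytic head, a stalk and a membrane ring. Atp5g3 (NM_175015) is 1 of 3 genes for the c subunit, whose copies form the rotating ring and whose mature protein is the same from all of them. Its log2 level was 15.57, 15.29, 15.71 and 15.33 in wild types 1 to 4 and 16.14, 15.79, 15.85 and 15.54 in mutants 1 to 4. Each mutant was above its array partner, and mutant 4 alone lay within the wild-type range. The arrays gave 0.57, 0.50, 0.14 and 0.21. The fitted ratio was 0.36 ± 0.12 (SE), 1.28-fold, with an unadjusted p of 0.0318 and an adjusted p of 0.541 (limma), or 0.0425 with the array as a random block. In that setting 1501 of 17510 genes passed.

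The other two c subunit genes showed less. Atp5g1 (NM_001161419) read 15.60, 15.78, 15.59 and 15.44 in wild types and 15.91, 15.67, 15.75 and 15.47 in mutants, a ratio of 0.10 ± 0.10 (SE, adjusted p = 0.734). Atp5g2 (NM_026468) read 15.07, 14.92, 14.93 and 14.93 in wild types and 15.06, 14.93, 14.94 and 14.85 in mutants, the most even values of the 3. Its ratio was −0.02 ± 0.10 (SE, adjusted p = 0.960), and its sign turned with several settings, median centring among them (0.09).

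The 3 c subunit genes are known to be transcribed separately, and their upstream sequences are shown for that reason. Whether the ratios of the 3 differ was not tested, nor was a link between motifs and ratios. Each is the 250 bases before the RefSeq start (GRCm38.p6, all on minus strands), at chr11:96075632-96075881 for Atp5g1, chr15:102671048-102671297 for Atp5g2 and chr2:73911327-73911576 for Atp5g3. Capitals mark CCAAT on either strand in Atp5g1 and Atp5g3 and the NRF1 motif in Atp5g2.
Atp5g1: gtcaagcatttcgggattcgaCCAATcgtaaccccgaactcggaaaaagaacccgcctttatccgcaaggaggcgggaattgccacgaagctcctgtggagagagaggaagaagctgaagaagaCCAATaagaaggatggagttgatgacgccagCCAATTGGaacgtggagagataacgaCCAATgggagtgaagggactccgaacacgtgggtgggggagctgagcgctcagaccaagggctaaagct
Atp5g2: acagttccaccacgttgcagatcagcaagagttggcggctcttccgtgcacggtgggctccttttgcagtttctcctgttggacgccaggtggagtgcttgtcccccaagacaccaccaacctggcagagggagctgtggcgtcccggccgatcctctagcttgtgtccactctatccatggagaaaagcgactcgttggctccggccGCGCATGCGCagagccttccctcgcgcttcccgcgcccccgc
Atp5g3: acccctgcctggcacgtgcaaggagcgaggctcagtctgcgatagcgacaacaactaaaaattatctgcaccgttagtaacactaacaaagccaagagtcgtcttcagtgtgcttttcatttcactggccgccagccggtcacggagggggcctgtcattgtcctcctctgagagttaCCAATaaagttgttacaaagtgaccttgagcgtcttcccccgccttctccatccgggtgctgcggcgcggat
Atp5g1 held 5 matches to CCAAT, of which a pair on opposite strands overlap in the run CCAATTGG, Atp5g3 held 1 and Atp5g2 held 0. The NRF1 match of Atp5g2 reads as the motif on both strands.

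In the catalytic head, Atp5b, the beta subunit, had levels of 16.29, 16.22, 16.28 and 16.04 in wild types and 16.77, 16.73, 16.21 and 16.16 in mutants. Only the female mutants were above the wild types. Its ratio was 0.26 ± 0.14 (SE, adjusted p = 0.554 with limma, or 0.0447 with the array as a random block, where 1501 of 17510 genes passed). The alpha subunit Atp5a1 had 0.08 ± 0.12 (SE) and the gamma subunit Atp5c1, part of the central stalk, 0.16 ± 0.11 (SE). In the same stalk, Atp5d (NM_025313), the delta subunit, read 13.94, 13.36, 13.77 and 13.72 in wild types and 14.00, 13.93, 13.92 and 13.84 in mutants. Wild type 2 was the low sample, and the ratio was 0.22 ± 0.12 (SE, adjusted p = 0.551). Atp5e, the epsilon subunit, had −0.05 ± 0.10 (SE).

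Peripheral stalk and membrane subunits gave similar values. Atp5pb (NM_009725), the b subunit of the peripheral stalk, read 13.45, 12.95, 13.06 and 12.72 in wild types and 13.58, 13.55, 12.71 and 12.88 in mutants. The genotypes overlapped in males and not in females, and the ratio was 0.13 ± 0.14 (SE, adjusted p = 0.723). Atp5o, Atp5h and Atp5j, of the same stalk, had 0.10, 0.04 and 0.04, and the membrane subunits Atp5j2, Atp5k and Atp5l 0.11, 0.06 and 0.18.

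The dye coefficients of the subunits were read next. The dye coefficient passed the adjusted threshold in 0 of 38 (background 0%), and 2 of 38, Cox5a and Cox6b1, had an unadjusted p under 0.05, beside 7.35% of all genes. It was below 0 in both sexes in 18 of 38 subunits, beside 25.5% of all genes, and above 0 in both in 6 of 38, beside 32.5%. Over the 38 subunits, arrays of the same dye orientation correlated at 0.48 (arrays 1 and 3) and 0.66 (arrays 2 and 4), and the 2 arrays of one sex at −0.14 (females) and −0.45 (males). These are Pearson correlations over genes that share arrays and dyes, given as a description. Values over all genes are not given, so they do not show a trait of the subunits. The arrays that shared a dye orientation thus ordered the subunits more alike than those that shared a sex.

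Different probes of the same gene were also compared. Of the 38 subunits, 15 had more than 1 probe past the filter, and in 11 of the 15 all probes had fitted genotype ratios of 1 sign. The median range between probes of a gene was 0.06 on array 1, 0.28 on array 2, 0.13 on array 3, 0.18 on array 4 and 0.05 for the fitted ratio. On array 2 the brightest Uqcr10 probe gave 0.06 and the dimmest 0.84, both of transcript NM_197979, and the pair of Atp5j2 probes gave 0.04 and 0.86. By contrast, the 5 probes of Atp5l, a membrane subunit, gave 0.44 to 0.62 there. The dye coefficient changed sign between probes of some genes, as in Sdhb (0.11 and −0.23) and Atp5j2 (0.10 and −0.22). In others it kept its sign, as in the 5 Atp5l probes (−0.25 to −0.12). The counts by dye given above thus hold for the brightest probe of each gene. The position of the probes in their transcripts was not used here, and Cyc1, Cox5a, Cox6b1 and Sdhd have 1 probe each, so their array 2 values could not be set against a second probe.

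**Figure D3:**
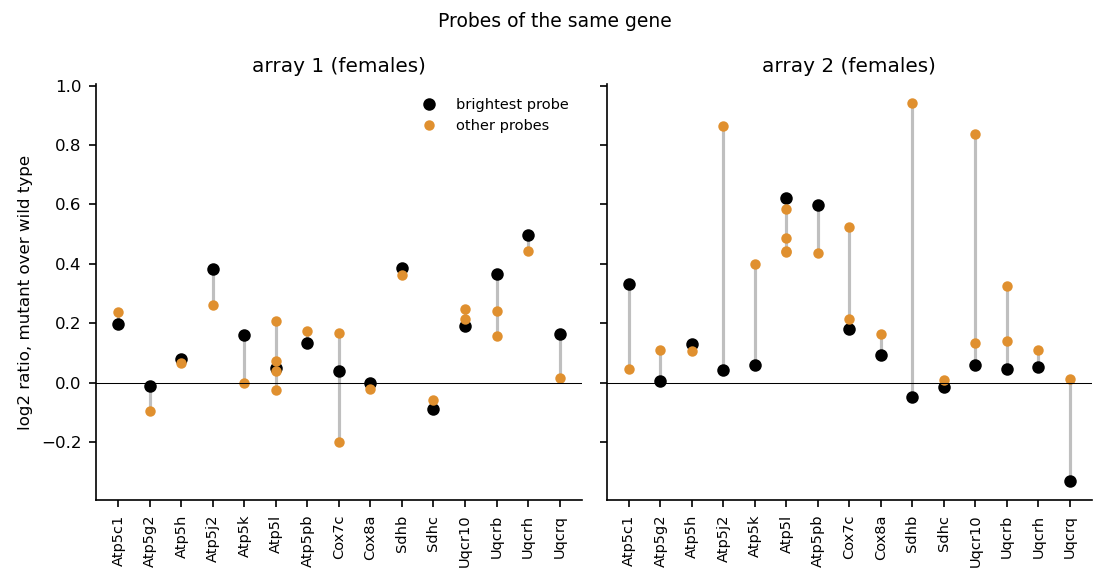
Log2 ratio of mutant over wild type of every probe past the filter for the 15 subunits with more than 1 probe, on array 1 (left) and array 2 (right), both from females. Black points are the brightest probe, which stands for the gene, orange points the others, and grey lines join probes of a gene. The median range between probes of a gene is 0.06 on array 1, with Cox7c widest at 0.37, and 0.28 on array 2, where single probes of Sdhb, Uqcr10 and Atp5j2 lie above 0.8 while the brightest probe of the same gene is near 0.

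The genotype ratio was then compared between the sexes. The median ratio of the 38 was 0.16 in females and 0.01 in males, with 32 and 23 of 38 above 0, beside 46.7% and 49.9% of all genes. In 35 of 38 subunits the ratio was larger in females, beside 46.2% of all genes and 51% of those with a symbol. The exceptions were Sdhc, Uqcrq and Uqcr11. None of the differences passed the adjusted threshold (0 of 38, background 0%), and none had an unadjusted p under 0.05 (0 of 38, background 5.83%), in a fit with 1 residual degree of freedom. The largest were 0.61 ± 0.28 (SE) for Sdhd, 0.50 ± 0.24 (SE) for Cyc1, 0.50 ± 0.22 (SE) for Cox5a, 0.47 ± 0.21 (SE) for Atp5b and 0.46 ± 0.21 (SE) for Atp5pb, with adjusted p from 0.824 to 0.836 (limma). Array 2, whose ratios were the most spread, is 1 of the 2 female arrays, and its part in this difference was not tested.

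**Figure D4:**
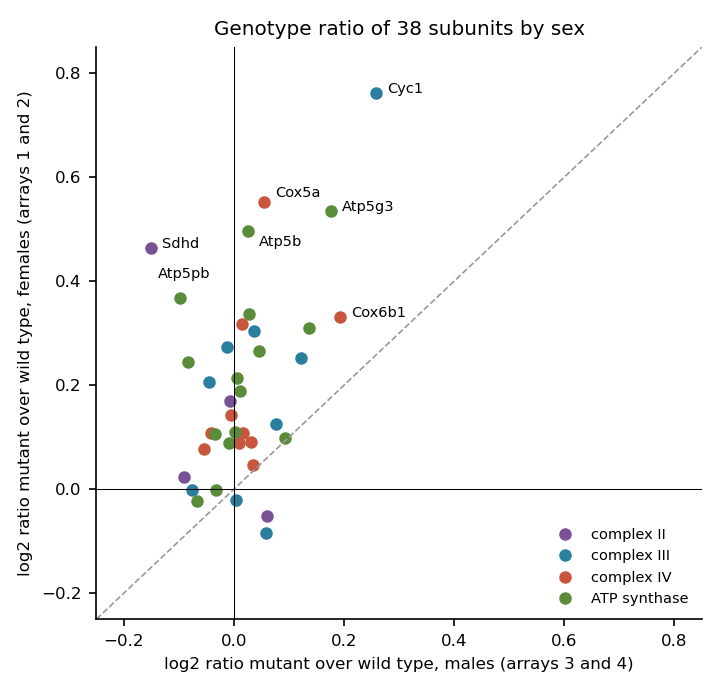
Fitted log2 ratio of mutant over wild type in females (vertical axis) against males (horizontal axis) for the 38 subunits, coloured by complex, with the line of equal ratios dashed. In 35 of 38 subunits the point lies above the line, Cyc1 farthest up at 0.76 in females and 0.26 in males.

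Levels of the subunits were also compared between males and females over both genotypes, in a fit of the single channels. No subunit passed the adjusted threshold (0 of 38 with limma, background 0.211% of 17510). In males 27 of 38 were lower, beside 49.6% of all genes and 56% of those with a symbol, with a median male minus female difference of −0.14 that was −0.03 without array 1. Lower in males at an unadjusted p under 0.05 were 3 of 38, beside 7.81% of all genes. Atp5a1, the alpha subunit of the ATP synthase, read 14.95, 15.22, 14.76 and 14.97 in the females and 14.63, 14.47, 14.28 and 14.28 in the males, each female above each male. The difference was −0.56 ± 0.18 (SE, adjusted p = 0.244). Atp5pb, with the female and male levels given above, had −0.54 ± 0.16 (SE, adjusted p = 0.205), although wild type 2 lay within the male range.

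Cox7b (NM_025379) read 15.43, 15.64, 15.48 and 15.43 in the females and 15.14, 15.08, 14.95 and 14.90 in the males, with no overlap and a difference of −0.48 ± 0.17 (SE, adjusted p = 0.263). Uqcrfs1 (NM_025710) read 14.19, 14.56, 14.13 and 14.38 in females and 13.97, 14.07, 13.93 and 13.90 in males, a difference of −0.35 ± 0.14 (SE, adjusted p = 0.305). These females also stood above the males throughout. Every female lay above every male in 5 of 38 subunits (Uqcrfs1, Cox6a1, Cox7b, Cox8a and Atp5a1), beside 12% of all genes, and every male above every female in 1, Atp5e, beside 12.6%. The epsilon subunit Atp5e differed by 0.23 ± 0.14 (SE). Sdhd, the member of complex II with the smallest p by sex, differed by −0.49 ± 0.30 (SE, adjusted p = 0.467).

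Beside the sex comparison, other values of the 4 female and 4 male samples were also compared. The summed log2 level of 4 red cell markers was 13.27 to 14.55 in females and 15.83 to 16.38 in males, that of 10 hepatocyte markers 20.45 to 20.73 and 20.15 to 20.57. For 3 lymphocyte markers it was 11.15 to 11.64 in females and 11.83 to 12.15 in males, and for 6 endothelial markers 13.88 to 14.26 and 14.28 to 14.45. Gene by gene the endothelial markers went the other way, with 4 of 6 lower in males (median −0.20), beside 49.6% of all genes. Of the lymphocyte markers 1 of 3 was lower in males, and of the red cell markers 0 of 4. The hepatocyte ranges overlapped between the sexes, as did those of Kupffer cell, neutrophil, stellate cell and cholangiocyte markers. Lower in males were 8 of 10 hepatocyte (median −0.35) and 8 of 9 Kupffer cell markers (median −0.17). So were 3 of 5 neutrophil, 3 of 5 stellate cell and 2 of 3 cholangiocyte markers. All 9 of 9 cell cycle genes were higher in males (median 1.03), beside 8823 of 17510 genes, although their summed ranges overlapped. The share of spots well above background was lower in males. Their part in the subunits' difference was not tested.

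Per liver, the median deviation of the 38 subunits from their own means was 0.00, −0.07, 0.04 and −0.21 in wild types 1 to 4 and 0.22, 0.12, 0.00 and −0.09 in mutants 1 to 4. Mutant 1 was the highest liver and had 33 of 38 subunits above their mean, and wild type 4 was the lowest, with 3 of 38. Wild type 4 was also lowest in each of the 4 complexes. The wild types of arrays 1 and 3 lay above those of arrays 2 and 4, as did the mutants of arrays 1 and 3 within each sex.

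**Figure D5:**
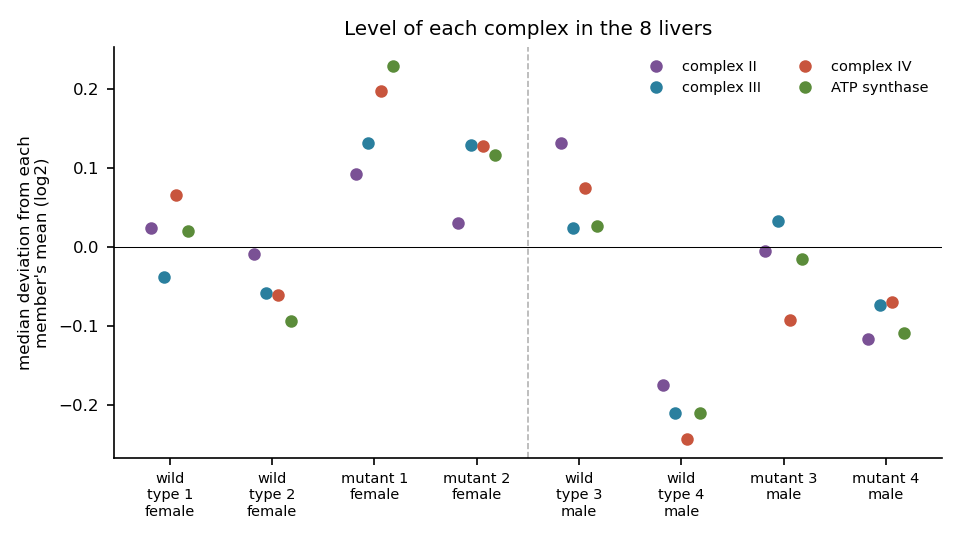
Median deviation of the subunits of each complex from their own means (log2) in each liver, females left and males right of the dashed line. All 4 complexes are lowest in wild type 4; complexes III, IV and the ATP synthase are highest in mutant 1 and complex II in wild type 3 (0.13).

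Complex I, which feeds electrons from NADH to ubiquinone, gave values of similar size. Of its 36 subunits, 30 had a ratio above 0 with a median of 0.12, beside 47% of all genes above 0. At an unadjusted p under 0.05 (limma) 5 were higher, beside 4.75% of all genes, and 0 passed the adjusted threshold. Ndufs8 had 0.56 ± 0.14 (SE) and Ndufa11 0.37 ± 0.12 (SE), both with an adjusted p of 0.541. Its array medians, 0.18, 0.16, −0.04 and 0.08, stood in the same order as those of complexes II to V. In females 29 of 36 ratios were larger than in males, beside 46.2% of all genes, with medians of 0.18 and 0.04. A difference between complex I and complexes II to V was not tested.

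Proteins attached to complexes II to V gave mixed values. Of 5 further subunits or bound proteins tested, 4 were above 0. Cox7a2l, known for a role in supercomplexes of complexes III and IV, was at −0.17 ± 0.10 (SE). It was below 0 on all 4 arrays, as were 1522 of the 17531 genes tested. Atpif1, the inhibitor that binds the ATP synthase when the proton gradient falls, had 0.33 ± 0.10 (SE, unadjusted p = 0.0177) and Atp5md, a small membrane subunit of the ATP synthase, 0.26 ± 0.11 (SE). Of the complex IV assembly factors, 17 of 19 were above 0 with a median of 0.14, beside 47% of all genes above 0. At an unadjusted p under 0.05 (limma) 3 of the 19 were higher, beside 4.75% of all genes. Among these 3 were Cmc2 (0.39 ± 0.13, SE) and Coa7 (0.35 ± 0.13, SE). The assembly factors of complex II had 3 of 4 above 0, with Sdhaf4 at 0.23 and Sdhaf1 at 0.11, those of complex III 3 of 5, with Uqcc3 at −0.20 and Ttc19 at −0.16, and those of the ATP synthase 2 of 3, with Tmem70 at 0.17 and Atpaf2 at 0.04. In none of these 5 lists did a gene pass the adjusted threshold.

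Cytochrome c and the ubiquinone pathway link the complexes. Of 16 such genes tested 12 were above 0, beside 47% of all genes, with a median of 0.11. Coq5, a methyltransferase of ubiquinone synthesis, had 0.47 ± 0.14 (SE, unadjusted p = 0.0170, adjusted p = 0.541), and Cycs, cytochrome c, 0.26 ± 0.12 (SE). In Coq5 each mutant was above each wild type, beside 1.34% of all genes. The lowest of the list, Coq10b, a ubiquinone-binding protein, was at −0.58 ± 0.53 (SE). The citric acid cycle had 8 of 13 above 0, Suclg1 with 0.42 ± 0.14 (SE) and Dld with 0.34 ± 0.15 (SE). Mitochondrial carriers and import genes also had 8 of 13, with Tomm22 at −0.21 and the nucleotide carrier Slc25a5 at 0.29. Regulators of respiratory genes had 5 of 9 above 0, with Gabpb1, a subunit of GABP, at −0.15 and Tfam, which packages and transcribes mitochondrial DNA, at 0.18.

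Summed marker levels of other liver cells were set beside the subunits. All 9 of 9 Kupffer cell markers past the filter had ratios above 0 at an unadjusted p under 0.05 (limma, median 0.66). Over all genes, 4.75% were higher at that p and 47% were above 0. The summed log2 level of the Kupffer cell markers was 13.95 to 14.98 in wild types and 14.69 to 15.44 in mutants. Of 5 neutrophil markers 5 were above 0 (median 0.64), 4 of them at that p, with summed levels of 11.10 to 12.49 and 12.38 to 12.90. Of 9 cell cycle genes 8 were above 0 (median of the list 1.12), all 8 at that p, with summed levels of 10.20 to 11.29 and 11.16 to 13.34. The 10 hepatocyte markers had 5 above 0, 2 of them at that p, with 20.15 to 20.73 and 20.34 to 20.66. Above 0 were also 1 of 3 lymphocyte, 3 of 6 endothelial, 3 of 5 stellate cell, 2 of 3 cholangiocyte and 1 of 4 red cell markers, and the neutrophil markers had 2 of 5 higher on array 1. No marker passed the adjusted threshold, and the part of these cells in the subunits' ratios was not tested.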

How the data were processed

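RNA of 8 mouse livers was labelled from 200 ng per sample, per the labels, and measured on 4 two-colour Agilent arrays. Per the file headers, Feature Extraction 10.7.3.1 wrote an intensity (linear scale) per spot and channel, as medians of spot and background, and other marks (0 or 1) for spots well above background, saturated or irregular. In the deposited table of the series, 55681 probes have log2 values that look centred on each probe's median. Their exact scale and centring are not settled, and they served as an alternative. Not used were 56 columns of per-sample values.

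Signals were background-corrected (normexp, offset 50) and loess-normalized within arrays (R 4.3.3, limma 3.58.1; files were read with data.table, version 1.17.8). Probes were named by RefSeq accession (27656 probes, 20972 symbols, RefSeq names of GRCm38.p6). Those well above background in at least 4 of 8 samples were kept (22031), and the brightest probe stood for a gene. A mean signal had been planned, but the files hold medians, which were used. Log2 ratios were fitted with genotype and dye as terms, 2 residual degrees of freedom, and Benjamini-Hochberg adjustment at 0.05 over all genes. Sex was tested on single channels (Aquantile, within-spot correlation 0.794). The replicate number names a shared array, so it pairs the samples; deviations of paired samples correlated at 0.685, 0.176, 0.560 and 0.646 across genes. The number of arrays limits the precision.

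Members and gene lists were chosen with earlier results of these data known. Named with full values were, per complex, the 2 members with the smallest p by genotype and the one with the smallest by sex and by difference between sexes, the c subunit genes, and up to 2 genes of each further list. Atp5b, Atp5a1, Cox7a2l, Coq10b and other genes outside this rule were added after their values were seen. Fits were tested on simulated data. Sequences are from RefSeq tables of GRCm38.p6. Figures were drawn with matplotlib under Python.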

Additional observations from a re-analysis of the deposited data

Results flagged for a closer look

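One level stood apart within its group. The c subunit gene Atp5g2 read 15.07 in wild type 1, where the other 3 wild types read 14.92 to 14.93. It was the 1 group picked out of 40 groups of 4 samples that were examined, and about 5% are picked out by chance. The mutant on the same array read 15.06, so the ratio of that array was −0.01.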

How the results depend on the processing

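Of 275 values of single genes under an alternative, 255 kept their direction and their side of the threshold, 8 changed sign and 12 newly passed. Of the 12 that newly passed, 7 were of Pus1, 2 of Cyc1 and 1 each of Cox7b, Atp5g3 and Atp5pb. Of the genes that changed sign, Sdhd (0.16 as reported) ranged from −0.10 to 0.41 when each array in turn was left out, Sdhb from −0.017 to 0.18, Cox7b from −0.056 to 0.079 and Atp5g2 from −0.037 to 0.0017. Atp5g2 was also 0.017 with processed signals, 0.093 with median centring, 0.054 with the series table and 0.00084 with the dimmest probe, a setting chosen after seeing the data. For genotype, 0 of 17531 genes passed. That count was 1, Pus1, with median centring, no filter, no dye coefficient or the dimmest probe. It was 1501 with the array as a random replicate block, 3 with no replicate block and 0 to 1490 when each array was left out, 1490 without array 4. Of the 38 subunits 3 passed with the random replicate block (Cyc1, Atp5g3 and Atp5b) and 0 to 1 when each array was left out, Cyc1 without array 4. By sex, 37 genes passed, against 6 with the filter in all 8 samples, 3241 with no replicate block, 2070 with array means (chosen after seeing the data) and 77 to 1245 when each array was left out. Of the subunits 3 passed with no replicate block (Atp5a1, Atp5pb and Cox7b). Median centring moved the median ratio to 0.15, 0.21, 0.17 and 0.21 in complexes II, III, IV and the ATP synthase and to 0.20 over the 38, and the median difference between sexes from 0.14 to 0.28, which was 0.26 with the series table. That table gave medians of 0.06, 0.15, 0.14 and 0.14 and 0.14 over the 38. With each array left out, the medians ran from 0.0021 to 0.11 in complex II, 0.027 to 0.19 in complex III, −0.004 to 0.13 in complex IV, 0.026 to 0.19 in the ATP synthase and 0.024 to 0.16 over the 38, and the male minus female median from −0.21 to −0.034. The causes were not tested. The difference between sexes could not be fitted with an array left out, which leaves no residual degree of freedom.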
